A study of Arabidopsis thaliana with 16 samples.

Results

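The genes described here are 40 Arabidopsis thaliana genes, of 33602 in the deposited table, whose transcript was higher after induction of the transcription factor SPEECHLESS (SPCH) than in any other condition of the series. They were chosen from their values in all 16 libraries. Each had a mean of at least 20 normalized counts in the inducible line at 12 h, and its lowest 12 h library of that line lay above the highest of the other 12 libraries. That mean was at least 1.3 times both the mean of the same line at 0 h and the mean of wild type at 12 h. The inducible line at 0 h was less than 1.3 times wild type at 0 h, and wild type at 12 h was at most 1.2 times wild type at 0 h. A further 11 genes, among them EPF2, TMM, ICE1 and SPCH itself, were left out by name, and 8 of those met every condition. Since these values chose the genes, their levels and ratios are given as a description, with no test.

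Messenger RNA of whole seedlings was sequenced in 4 groups of 4 libraries. The inducible line was homozygous for ATML1pro:GR-SPCH1-4A-YFP, in which the promoter of ATML1, active in the epidermis, drives a SPCH variant with altered phosphorylation sites that is fused to YFP and to the ligand-binding domain of the glucocorticoid receptor (GR). Dexamethasone, the ligand of that domain, moves the protein into the nucleus. The groups were this line at 12 h after 100 µM dexamethasone, the same line at 0 h without it, wild type at 12 h after 100 µM dexamethasone, and wild type at 0 h without it. All seedlings were 7 days past germination, had been cold-treated for 2 days as seeds and grew in shaken liquid culture (90 rpm, Murashige and Skoog salts, 1% sucrose). No 12 h group without dexamethasone was analysed here, so that within a line the drug and the elapsed time cannot be told apart. Whether replicate libraries stem from separate cultures is not stated in the labels, so their spread, and p-values that rest on it, may be partly technical. In whole seedlings, more cells of a type and more RNA per cell cannot be told apart.

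SPCH is a basic helix-loop-helix transcription factor that starts the stomatal lineage in the leaf epidermis. With its partners ICE1 and SCRM2 it binds DNA at short elements of the E-box kind and drives protodermal cells into asymmetric divisions, whose smaller daughters can go on to form guard cells. Cells that divide need D-type cyclins to enter the cycle, origin recognition proteins to start DNA replication, and B-type cyclins and kinesins to pass through mitosis, and genes of mitosis often hold the element AACGGC in their promoters.

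The promoter stretches of 7 of the 40 genes are shown as picked examples that hold elements searched for, and they do not stand for their classes. They are of transcription regulators, a receptor kinase and cell-cycle genes, and of AT3G51230, which holds 4 copies of 1 element. Of the same classes, HAT9, AT1G56130 and ATK5, with 3, 4 and 3 copies of CANNTG, are not printed. Nor are VIM3, AT2G22610 and AT4G22860, which hold none of the elements searched for. Each printed stretch is the 250 bases before the annotated start of transcription in TAIR10.1, read 5′ to 3′ on the strand of the gene. In the first 4, capitals mark the E-box CANNTG and, in CYCD3;2, also CGCGTG on either strand; in the other 3, capitals mark AACGGC on the strand shown. The stretches lie at chr5:2284580-2284829 for EMS1 (plus strand), chr1:4941333-4941582 for HB31 (minus strand) and chr4:219927-220176 for ATMYC1 (minus strand). Those of CYCD3;2 (plus strand), AT3G51230 (minus strand), CYCB1;2 (minus strand) and ZCF125 (plus strand) lie at chr5:26835889-26836138, chr3:19024353-19024602, chr5:1861704-1861953 and chr1:21873762-21874011.
EMS1: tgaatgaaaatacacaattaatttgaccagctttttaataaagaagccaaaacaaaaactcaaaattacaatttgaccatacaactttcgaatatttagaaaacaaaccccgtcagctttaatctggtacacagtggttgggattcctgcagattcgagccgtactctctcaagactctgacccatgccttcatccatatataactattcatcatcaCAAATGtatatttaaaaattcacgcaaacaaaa
HB31: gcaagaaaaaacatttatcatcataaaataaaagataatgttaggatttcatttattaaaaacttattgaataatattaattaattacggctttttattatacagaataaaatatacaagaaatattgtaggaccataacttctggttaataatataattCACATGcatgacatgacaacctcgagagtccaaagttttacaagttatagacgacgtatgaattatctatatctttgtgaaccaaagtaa
ATMYC1: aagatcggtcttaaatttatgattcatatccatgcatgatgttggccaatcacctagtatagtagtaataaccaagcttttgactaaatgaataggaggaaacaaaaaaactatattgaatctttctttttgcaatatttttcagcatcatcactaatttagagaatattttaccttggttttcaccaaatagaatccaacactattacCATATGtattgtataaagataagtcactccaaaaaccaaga
CYCD3;2: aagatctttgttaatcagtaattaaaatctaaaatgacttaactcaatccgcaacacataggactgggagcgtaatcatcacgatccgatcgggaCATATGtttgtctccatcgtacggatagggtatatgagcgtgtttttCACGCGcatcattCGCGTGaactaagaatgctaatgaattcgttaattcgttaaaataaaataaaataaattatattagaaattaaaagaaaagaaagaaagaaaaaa
AT3G51230: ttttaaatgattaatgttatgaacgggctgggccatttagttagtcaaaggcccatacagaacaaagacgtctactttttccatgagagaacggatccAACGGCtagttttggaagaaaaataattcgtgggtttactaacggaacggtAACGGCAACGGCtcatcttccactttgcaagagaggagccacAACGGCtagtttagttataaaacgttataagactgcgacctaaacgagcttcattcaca
CYCB1;2: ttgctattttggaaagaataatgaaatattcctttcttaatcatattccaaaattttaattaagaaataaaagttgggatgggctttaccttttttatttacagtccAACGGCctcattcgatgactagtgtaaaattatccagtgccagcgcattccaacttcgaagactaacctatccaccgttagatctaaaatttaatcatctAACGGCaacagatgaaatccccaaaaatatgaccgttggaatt
ZCF125: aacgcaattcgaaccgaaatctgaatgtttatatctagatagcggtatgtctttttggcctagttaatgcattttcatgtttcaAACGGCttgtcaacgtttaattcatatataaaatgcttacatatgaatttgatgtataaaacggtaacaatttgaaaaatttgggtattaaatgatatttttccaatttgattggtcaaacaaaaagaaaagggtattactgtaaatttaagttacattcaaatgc

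In the window from 250 bases before to 50 bases after the start, CANNTG was present in 31 of the 40 promoters, 77.5% (exact 95% binomial interval 61.5% to 89.2%), and in 61.6% of 26711 promoters of the annotation. The member share stood above that of all promoters, whose value lay just inside the interval. AT1G56130 held 4 E-boxes within its upstream stretch. The G-box CACGTG, which is also an E-box, was present in 2 members, AT1G56130 and NYC1, 5% (0.611% to 16.9%) against 7.79% of all promoters. CGCGTG was present in 2 members, AT1G14550 and CYCD3;2, 5% against 3.18% of all promoters, and CYCD3;2 held it once on each strand. AACGGC was present in 7 members, 17.5% (7.34% to 32.8%), against 6.88% of all promoters. These were EMS1, AT3G02640, AT3G51230, AT1G56130, AT3G12870, CYCB1;2 and ZCF125, and the copies numbered 4 in AT3G51230 and 2 in CYCB1;2. The form AACGGT was not searched for, so these shares are of AACGGC alone. The CYCB1;2 stretch printed above also holds AACGGT, on the other strand and unmarked. Those of AT3G51230 and ZCF125 hold it unmarked on the strand shown. A match to these letters describes the sequence and is not a measured binding site. The intervals cover counting error only.

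**Figure D1:**
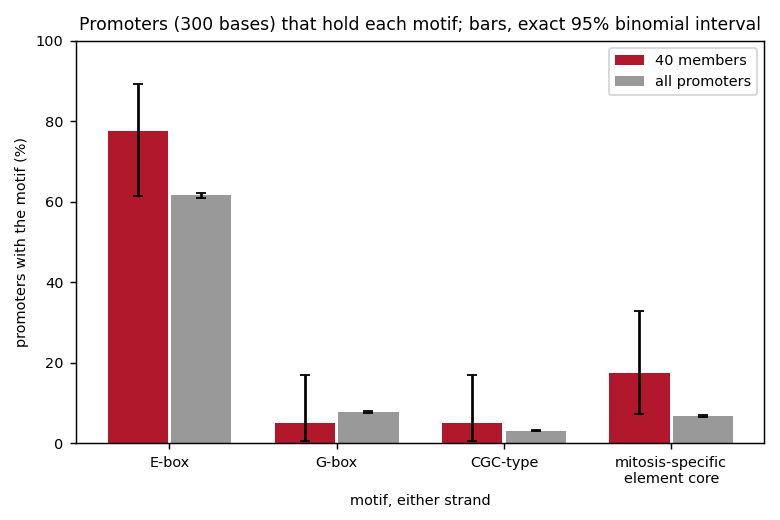
Share of promoters (percent, y axis) that hold each element on either strand, from 250 bases before to 50 bases after the start, for the 40 genes (red) and all 26711 promoters (grey); bars are exact 95% binomial intervals. The red share is 77.5% against 61.6% for the E-box and 17.5% against 6.88% for the mitosis-specific element core.

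SPCH itself checked the labels. Reads of the transgene count to the same gene. The transcript had 211, 197, 158 and 233 normalized counts in the inducible line at 12 h and 116, 144, 154 and 145 in that line at 0 h. Wild type had 59.0, 68.5, 63.3 and 72.0 at 12 h, and 69.7, 56.1, 67.3 and 60.5 at 0 h. Every library of the inducible line lay above every wild-type library, and its 12 h libraries lay above its 0 h libraries. A normalized count is the number of reads of a gene divided by 1 size factor per library. The library totals ran from 16251477 to 22944391 reads, and a count of 0 allows up to 3 reads, a share of no more than 1.8e-05% of any library. Relative to the mean of the 12 libraries outside the inducible line at 12 h, the median over all genes tested ran from 0.976 to 0.987 in the 16 libraries, which the scaling by size factors brings near 1.

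The rule passed few genes. Of 19059 genes with a mean of at least 20 in the inducible line at 12 h, 168 (0.881%) had no overlap between its 4 libraries there and the other 12, and the whole rule with its named exceptions took 40 (0.21%). All 40 passed the filter on low values that the model across all genes used. In limma with Benjamini-Hochberg adjustment 29 of the 40 passed as higher in the inducible line at 12 h than at 0 h (1.44% of all genes tested did) and 28 as higher than wild type at 12 h (1.2%). Of these 23 passed in both and 6 of the 40 in neither. In the line-by-time interaction, how far the inducible line moved over 12 h beyond wild type, 5 passed as higher (0.0964%), and 13 with the replicate number as a block (0.689%). The 5 were AT1G12845, AT3G14760, ATMYC1, AT3G49900 and AT3G02640. The rule used these contrasts, so nothing is read from the counts. In the inducible line at 0 h against wild type 0 of the 40 passed as higher (1.42%), and in wild type at 12 h against 0 h 0 passed (2.27%), contrasts that the rule limits. At an unadjusted p under 0.05 in limma 0 of the 40 were higher in either contrast, 2 and 3 were lower, and edgeR and DESeq2 also called 0 as higher. DESeq2 called 1 of the 40 as lower in the inducible line at 0 h than in wild type at 0 h, and edgeR 0.

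Across the 40 genes the mean of the inducible line at 12 h was 1.32 to 3.12 times its mean at 0 h (median 1.63) and 1.32 to 4.23 times wild type at 12 h (median 1.72). The smaller of the 2 ratios was at least 1.5 in 25 genes, at least 2 in 14 and at least 3 in 1. Over all genes tested the medians of the 2 ratios were 1.01 and 1.01. The 11 genes left out by name had ratios of 1.43 to 8.36 and 1.68 to 8.61. The inducible line at 0 h was 0.706 to 1.24 times wild type at 0 h (median 1.03), above it in 22 genes and below it in 18. Wild type at 12 h was 0.673 to 1.17 times wild type at 0 h (median 0.989), above it in 19 genes and below it in 21. The lowest 12 h library of the inducible line was 1.01 to 2.26 times the highest of the other 12 (median 1.12), so that in many of the genes the libraries were separated only narrowly. The highest of those other 12 was a wild-type 0 h library in 20 genes, an inducible 0 h library in 11 and a wild-type 12 h library in 9.

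**Figure D2:**
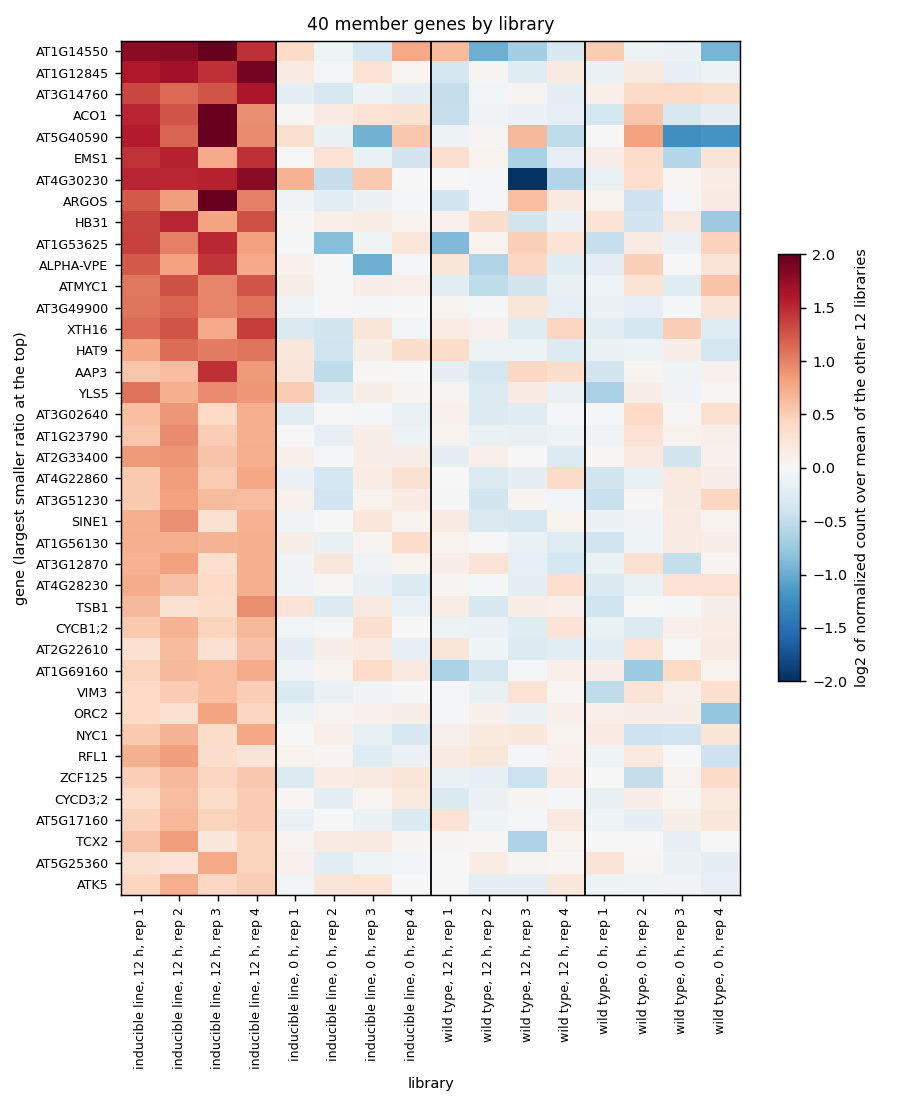
Heat map of the 40 genes (y axis, the largest smaller ratio at the top) by library (x axis, 4 groups of 4), coloured by log2 of the normalized count over the mean of the 12 libraries outside the inducible line at 12 h. The 4 libraries of the inducible line at 12 h are red throughout, with gene medians of 1.63, 1.78, 1.58 and 1.68 times that mean, while the other 12 library medians lie between 0.919 and 1.09.

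The gene with the widest separation was AT1G12845, which encodes a protein without known function and lies on chromosome 1 from 4378832 to 4379607. It had 556, 590, 502 and 694 normalized counts in the inducible line at 12 h and 205, 178, 222 and 189 in that line at 0 h. Wild type had 143, 191, 155 and 208 at 12 h and 167, 207, 163 and 171 at 0 h. Its lowest induced library was 2.26 times its highest other library, and the other 3 groups overlapped one another. Its means were 2.95 times the 0 h level and 3.36 times wild type, and its interaction estimate on the log2(normalized count + 1) scale was 1.58 (SE 0.20). It lies 4696 bases from SCRM2, the SPCH partner gene, which is on the other strand and met the rule but was left out by name.

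AT3G14760 (chromosome 3 from 4956349 to 4957306), also without known function, had 243, 212, 232 and 296 in the inducible line at 12 h and 84.9, 77.2, 89.6 and 84.6 there at 0 h. Wild type had 69.2, 93.1, 100.4 and 84.1 at 12 h and 104, 126, 126 and 121 at 0 h. Wild type at 0 h was the highest of the 3 other groups, and none of its libraries overlapped the inducible line at 0 h or wild type at 12 h. The ratios were 2.92 to the 0 h level and 2.83 to wild type, with an interaction estimate of 1.99 (SE 0.21). AT4G30230 (chromosome 4 from 14806251 to 14807425), also without known function, had 68.8, 67.6, 69.0 and 83.1 in the inducible line at 12 h and 38.8, 17.1, 34.2 and 23.7 there at 0 h. Wild type had 23.8, 23.5, 6.03 and 15.9 at 12 h and 21.7, 30.1, 24.6 and 26.5 at 0 h. The induced libraries lay close together and far above the rest, and the ratios were 2.54 and 4.17, the larger one against a wild-type group with a low replicate 3. AT1G53625 (chromosome 1 from 20014379 to 20015038) had 145, 114, 160 and 100.0 in the inducible line at 12 h and 55.5, 31.4, 53.4 and 66.4 there at 0 h. Wild type had 30.6, 59.3, 78.3 and 68.2 at 12 h and 41.2, 63.6, 52.4 and 77.5 at 0 h. The 3 other groups overlapped, and the ratios were 2.51 and 2.19. Altogether 8 of the 40 genes are annotated only as an uncharacterized protein, the others of the 25 leading genes being AT3G02640 and AT3G12870, with smaller ratios of 1.69 and 1.52. AT1G23790, whose product holds a domain of unknown function, had 1.65.

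Among the transcription regulators, ATMYC1 (AT4G00480, chromosome 4 from 216812 to 219926), a basic helix-loop-helix factor of the kind that works with MYB proteins in epidermal patterning, had the largest ratio to wild type at 12 h. It had 393, 459, 372 and 451 normalized counts in the inducible line at 12 h and 205, 191, 208 and 203 there at 0 h. Wild type had 162, 134, 147 and 170 at 12 h and 181, 229, 160 and 282 at 0 h. Its induced libraries lay apart from all others, its wild type at 12 h lay below its inducible 0 h libraries, and the ratios were 2.07 and 2.73 with an interaction estimate of 1.49 (SE 0.22). Of 3 related bHLH genes, GL3 averaged 9.64 ± 4.05 (SD, n = 4) in the inducible line at 12 h and 23.5 ± 9.04 there at 0 h. Wild type averaged 24.1 ± 3.80 at 12 h and 22.7 ± 0.813 at 0 h. The induced mean was the lowest of the 4 for GL3 and for EGL3, which averaged 41.5, 48.0, 52.8 and 64.7 in the same order of groups. TT8 averaged 31.7, 45.9, 24.6 and 31.6 in that order, so that its induced mean lay below that at 0 h and above wild type at 12 h, with ratios of 0.691 and 1.29. These family comparisons were chosen after the values of the members were seen.

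HB31 (AT1G14440, chromosome 1 from 4938754 to 4941332), a zinc-finger homeodomain protein also called ZHD4, had 422, 474, 284 and 399 in the inducible line at 12 h and 169, 177, 184 and 174 there at 0 h. Wild type had 176, 211, 129 and 153 at 12 h and 200.1, 126, 187 and 99.8 at 0 h. Its induced replicate 3 was the lowest of its group and still lay above all others, and the ratios were 2.25 and 2.36. HAT9 (AT2G22800, chromosome 2 from 9704632 to 9706217), a homeodomain-leucine zipper protein of class II, averaged 88.4 ± 8.99 in the inducible line at 12 h and 47.3 ± 9.91 there at 0 h. Wild type averaged 43.8 ± 8.86 at 12 h and 41.0 ± 5.38 at 0 h. The ratios were 1.87 and 2.02, and the 3 other groups overlapped. HAT22, its near relative, averaged 394, 359, 393 and 359 in the same order of groups, ratios of 1.10 and 1.00, and so stood near the same level in all 4 groups. Product words also place VIM3 here, a RING finger protein that helps keep DNA methylated, with ratios of 1.55 and 1.38. Of the same family VIM1 had 1.32 and 1.10 and VIM2 1.37 and 1.22.

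Of the receptor-like proteins EMS1 (AT5G07280, chromosome 5 from 2284830 to 2288855), a leucine-rich repeat receptor kinase known for setting the fate of tapetal cells in anthers, had 244, 262, 152 and 247 in the inducible line at 12 h and 90.1, 111, 82.2 and 70.1 there at 0 h. Wild type had 113, 95.1, 57.2 and 80.4 at 12 h and 98.3, 116, 60.9 and 107 at 0 h. Replicate 3 was the lowest library of its group in the inducible line at 12 h and in both wild-type groups, and the ratios were 2.57 and 2.62. AT1G56130, the other kinase and also with leucine-rich repeats, averaged 127 ± 1.5 in the inducible line at 12 h and 82.9 ± 11.9 there at 0 h. Wild type averaged 73.3 ± 7.47 at 12 h and 75.9 ± 12.6 at 0 h. Its 4 induced libraries were the closest together of the 40 genes relative to their mean, and its ratios were 1.53 and 1.73.

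Enzymes and growth-related genes were also among the 12 with the largest smaller ratio. ACO1 (AT2G19590, chromosome 2 from 8475276 to 8477733), an ACC oxidase of the last step of ethylene synthesis, had 506, 420, 857 and 332 in the inducible line at 12 h and 178, 197, 211 and 217 there at 0 h. Wild type had 127, 167, 161 and 157 at 12 h and 137, 254, 141 and 155 at 0 h. Its induced libraries lay above all others and were spread more widely than those of any other group, with replicate 3 the highest, and the ratios were 2.63 and 3.46. Of other genes of that family AT1G12010 had ratios of 1.38 and 1.26 and AT1G77330 of 1.49 and 0.972. EFE, a more abundant ACC oxidase, had ratios of 1.08 and 1.12, with averages of 14288, 13184, 12780 and 12497 in the inducible line at 12 h and 0 h and wild type at 12 h and 0 h. ARGOS (AT3G59900, chromosome 3 from 22129505 to 22130472), an auxin-induced gene that enlarges organs by prolonging cell proliferation, had 346, 264, 663 and 297 in the inducible line at 12 h and 141, 128, 137 and 144 there at 0 h. Wild type had 113, 145, 226 and 167 at 12 h and 155, 111, 145 and 167 at 0 h. Replicate 3 was again the highest at 12 h in both lines, and the ratios were 2.86 and 2.41. ARL, the related gene, averaged 2621 ± 852 in the inducible line at 12 h and 2533 ± 372 there at 0 h. Wild type averaged 1106 ± 80.5 at 12 h and 1031 ± 408 at 0 h, so that the ARL mean was higher in the inducible line at both times.

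AT1G14550 (chromosome 1 from 4978922 to 4980466), of the peroxidase superfamily, was the least abundant and had the largest ratios. It had 28.1, 28.4, 40.2 and 22.3 in the inducible line at 12 h and 10.5, 7.62, 6.40 and 13.6 there at 0 h. Wild type had 12.5, 4.09, 5.02 and 6.54 at 12 h and 11.4, 7.53, 7.48 and 4.25 at 0 h. All induced libraries lay above the rest, at ratios of 3.12 and 4.23 at a mean of 29.8 in the inducible line at 12 h. Its neighbour PER4, another peroxidase 3216 bases away on the other strand, averaged 286 ± 88.5 in the inducible line at 12 h and 81.3 ± 19.5 there at 0 h. Wild type averaged 68.4 ± 18.8 at 12 h and 37.0 ± 2.32 at 0 h. The ratios were 3.52 and 4.18. It was the 1 of 59 tested neighbours of the 40 genes with both ratios at 1.3 or more, while 3.11% of all genes tested had both. AT5G40590 (chromosome 5 from 16251318 to 16252434), of the cysteine and histidine-rich C1 domain family, had 1085, 820, 1484 and 702 in the inducible line at 12 h and 457, 333, 190 and 531 there at 0 h. Wild type had 342, 382, 574 and 259 at 12 h and 368, 639, 157 and 162 at 0 h. Its other groups spread over a wide range, from 157 to 639, and it passed no threshold in limma despite ratios of 2.71 and 2.63.

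ALPHA-VPE (AT2G25940, chromosome 2 from 11063301 to 11066184), a cysteine protease that processes vacuolar proteins, had 83.3, 61.7, 95.8 and 59.9 in the inducible line at 12 h and 37.7, 35.2, 18.1 and 34.6 there at 0 h. Wild type had 42.0, 23.5, 47.2 and 29.9 at 12 h and 30.9, 49.4, 35.3 and 42.5 at 0 h. The 3 other groups overlapped, and the ratios were 2.39 and 2.11. XTH16, an enzyme that remodels xyloglucan in the cell wall, averaged 950 ± 167 in the inducible line at 12 h and 400 ± 78.1 there at 0 h. Wild type averaged 466 ± 87.6 at 12 h and 418 ± 124 at 0 h. The ratios were 2.37 and 2.04, and the 3 other groups overlapped. Its relative XTH15 had ratios of 1.05 and 0.777. AT3G49900, of the NPH3 family linked to light-directed growth, averaged 233 ± 13.3 in the inducible line at 12 h and 109 ± 2.17 there at 0 h. Wild type averaged 113 ± 13.4 at 12 h and 110 ± 14.9 at 0 h, and the induced libraries of AT3G49900 lay above all others. The amino acid permease AAP3 had ratios of 1.94 and 1.76 and YLS5, named for its transcript in yellowing leaves, 1.71 and 1.93. The remaining leading genes were AT2G33400, annotated as like a FK506-binding nuclear protein, AT3G51230 of the chalcone-flavanone isomerase family and SINE1 (AT1G54385), an actin-binding protein of the nuclear envelope, with smaller ratios of 1.61, 1.57 and 1.53.

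**Figure D3:**
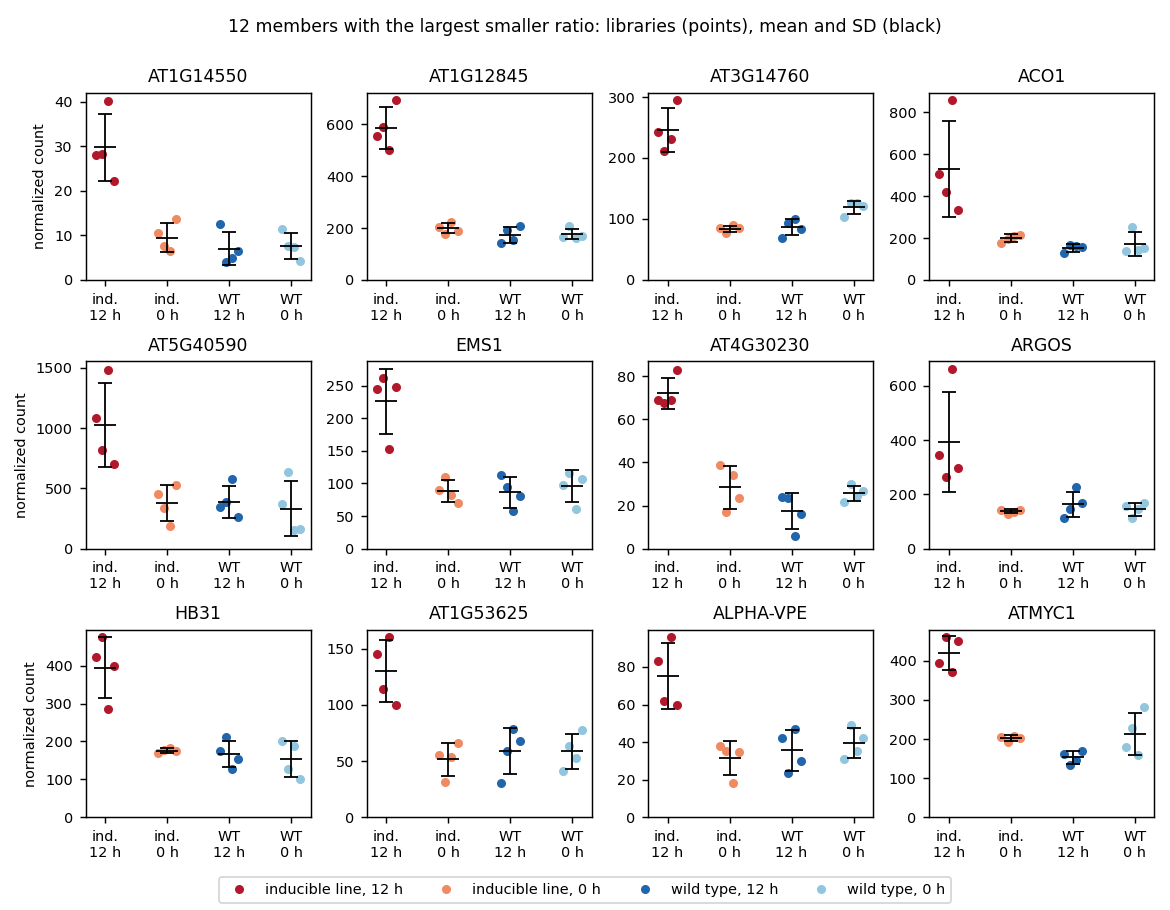
Normalized counts (y axis, from 0) of the 12 genes with the largest smaller ratio in the 4 groups (x axis); points are libraries, and black bars are the mean and SD of 4. In each panel the inducible line at 12 h lies above all other libraries, with AT1G12845 the widest apart at 2.26 times and AT5G40590 the narrowest of the 12 at 1.10 times.

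Genes of the cell division machinery ranked below the 12 leading genes, which are by definition those with the largest smaller ratio. CYCB1;2 (AT5G06150), a mitotic cyclin, averaged 581 ± 46.9 in the inducible line at 12 h and 405 ± 53.1 there at 0 h. Wild type averaged 381 ± 62.2 at 12 h and 379 ± 51.7 at 0 h. The ratios were 1.43 and 1.53. It shares 97.7% of 390 bases with CYCB1;5, whose reads could be split with it. CYCD3;2 (AT5G67260), a D-type cyclin that promotes entry into the cell cycle, averaged 916 ± 78.6 in the inducible line at 12 h and 677 ± 72.1 there at 0 h. Wild type averaged 624 ± 63.5 at 12 h and 690 ± 69.5 at 0 h. The ratios were 1.35 and 1.47, and its induced libraries lay above all others while the other 3 groups overlapped. CYCD3;1 had larger ratios of 1.67 and 1.60 without meeting the order of libraries, and CYCD3;3 had 0.952 and 0.930. ORC2 (AT2G37560), a subunit of the origin recognition complex, averaged 99.4 ± 15.3 in the inducible line at 12 h and 72.6 ± 4.58 there at 0 h. Wild type averaged 71.5 ± 5.14 at 12 h and 67.7 ± 17.5 at 0 h. The ratios were 1.37 and 1.39, while ORC1A had ratios of 1.34 and 1.00, ORC1B 1.24 and 1.14, and ORC3 1.06 and 1.11. The kinesins ATK5, AT2G22610 and ZCF125 also belong here, with smaller ratios of 1.32, 1.39 and 1.35, beside AT4G22860, of the microtubule-associated proteins regulated with the cell cycle, at 1.57.

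TCX2 (AT4G14770), also called SOL2, a CXC-domain protein that acts in the stomatal lineage, had 632, 755, 489 and 577 in the inducible line at 12 h and 439, 476, 482 and 440 there at 0 h. Wild type had 442, 433, 277 and 445 at 12 h and 428, 427, 379 and 425 at 0 h. Its lowest induced library was 1.01 times the highest other one, and the ratios were 1.33 and 1.54. SOL1, its relative, averaged 600 ± 134 in the inducible line at 12 h and 336 there at 0 h. SOL1 averaged 267 in wild type at 12 h and 310 there at 0 h. TSO1 averaged 1022, 1029, 855 and 981 in the same order of groups. TCX2 overlaps 716 bases of NET1B on the other strand and ATK5 overlaps 492 bases of CRK25. How reads were assigned by strand is not given in the sources used here, so that reads of such partners cannot be told apart. Altogether 12 of the 40 genes overlap a gene on the other strand.

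The other 7 genes had smaller ratios from 1.32 to 1.48. TSB1, the beta subunit of tryptophan synthase, was the most abundant of the 40 at 6603 ± 1363 in the inducible line at 12 h, 4480 ± 781 there at 0 h, 4504 ± 648 in wild type at 12 h and 4216 ± 613 in wild type at 0 h. NYC1, a chlorophyll b reductase, averaged 2324 ± 287 in the inducible line at 12 h and 1449 ± 173 there at 0 h. Wild type averaged 1703 ± 74.2 at 12 h and 1460 ± 351 at 0 h. RFL1 had ratios of 1.53 and 1.36, and AT4G28230, AT1G69160, AT5G17160 and AT5G25360 had smaller ratios of 1.48, 1.39, 1.35 and 1.32. Per kilobase of transcript, a level that can be compared between genes, the 40 genes ran from 24.5 normalized counts in AT1G14550 to 3693 in TSB1 in the inducible line at 12 h.

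**Figure D4:**
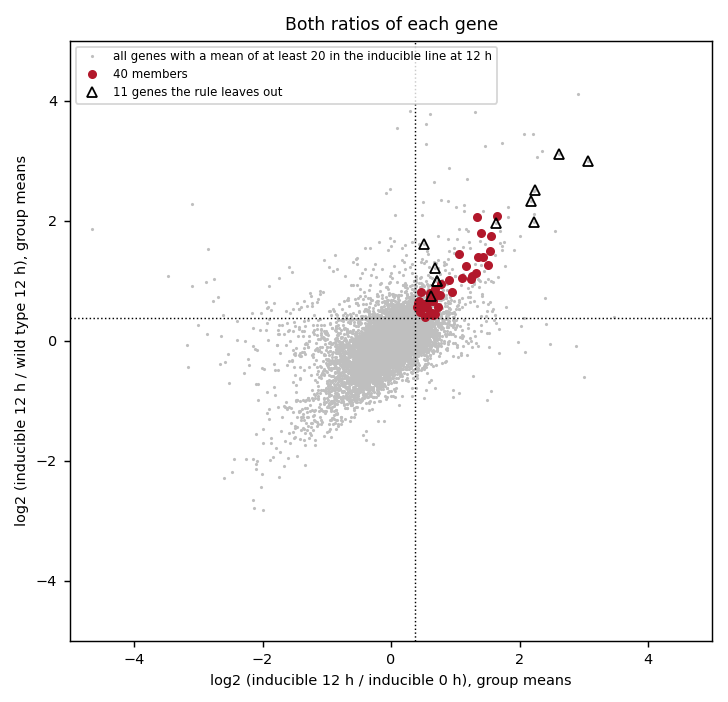
log2 ratio of the inducible line at 12 h to the inducible line at 0 h (x axis) and to wild type at 12 h (y axis) for every gene with a mean of at least 20 (grey), the 40 genes (red) and the 11 genes left out by name (triangles); both axes share the 12 h libraries of the inducible line. Dotted lines mark the ratio 1.3, and the 40 genes lie up to 3.12 on the x axis and 4.23 on the y axis as plain ratios, below the largest triangles.

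At most limits the genes just inside and just outside, each meeting every other condition, lay close together. At the ratio of 1.3 to 0 h ATK5, TCX2 and CYCD3;2 stood inside at 1.32, 1.33 and 1.35, and AT3G20150, WYR and AT1G29120 outside at 1.29, 1.29 and 1.27. At the ratio of 1.3 to wild type AT5G25360, AT5G17160 and RFL1 stood inside at 1.32, 1.35 and 1.36, and HD2C, TET6 and AT4G02110 outside at 1.29, 1.24 and 1.21. The 3 nearest outside the first of these limits differed from the nearest inside by a few hundredths of a ratio. At the limit of 1.3 on the lines at 0 h AT1G14550, YLS5 and ATK5 stood inside at 1.24, 1.19 and 1.18, and AT3G47295, AT5G38940 and AT1G80450 outside, the nearest at 1.301. At the limit of 1.2 on time in wild type AT5G40590, NYC1 and RFL1 stood inside at 1.17, 1.17 and 1.13, and Hsp70-2, AT5G59700 and AT3G17130 outside at 1.23, 1.25 and 1.26. For the order of libraries AT3G02640, AT5G25360 and AT2G22610 stood inside at 1.01 times each, and AT4G12870, PAR1 and CLT3 outside at 0.998, 0.996 and 0.992 times. The mean of 20 separated them widely, with AT1G14550, AT4G30230 and ALPHA-VPE inside at 29.8, 72.1 and 75.2 and CYP705A14P, AT5G62240 and AT3G26742 outside at 13.4, 12.7 and 12.3. AT5G62240 overlaps ERL1 by 82 bases on the other strand and AT3G26742 lies 808 bases from ICE1, both of them genes left out by name. The order of libraries alone kept out 216 genes that met every other condition, the most of any condition, and each of the others kept out 3 to 12.

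The lists of pathway genes show where the 40 stand. The list of mitosis and cytokinesis held 32 genes tested, of which 1 is among the 40, 1 was left out by name and 28 had a positive interaction estimate, with a median of 0.39 on the log2 scale against -0.00 over all genes tested. Of all 20756 genes tested 10305 had a positive estimate. In limma 1 of the 32 passed in the interaction as higher (CYCB1;1) and 0 as lower. Its summed level was 9332 to 12519 in the inducible line at 12 h, 8403 to 9350 there at 0 h, 6363 to 8231 in wild type at 12 h and 7575 to 9401 in wild type at 0 h. The list of DNA replication held 22 genes tested, with a median of 0.12, and the list of D-type cyclins and inhibitors 19, with a median of 0.10. In limma 0 of either list passed in the interaction. At an unadjusted p under 0.05 in limma 1 DNA replication gene was higher, and 2 genes of the D-type list were higher and 1 lower. Here edgeR called 0 of either list, and DESeq2 called 2 of the D-type list as higher. These fits held no lane term, and the lists were not read in the fit that did. Of the 25 stomatal lineage genes tested 1 is among the 40, 9 were left out by name and 7 passed in limma as higher in the interaction, where 0.0964% of all genes tested did, with a median of 0.46. All 7, ICE1, SCRM2, EPF2, TMM, BASL, POLAR and CPL3, are among the genes left out by name. MUTE and FAMA, factors of later steps of that lineage, averaged 27.7 and 337 in the inducible line at 12 h and 30.6 and 277 there at 0 h. Wild type averaged 32.6 and 308 at 12 h and 24.8 and 286 at 0 h. The lists of epidermis and cuticle, auxin, brassinosteroid and chromatin genes held 23, 23, 18 and 18 genes tested, none of them among the 40, with medians of -0.30, -0.31, -0.17 and 0.09, and 1 epidermis gene passed in limma as lower (0.414% of all genes tested did). At an unadjusted p under 0.05 in limma 7 epidermis, 2 auxin and 1 brassinosteroid gene were lower. On the same terms 1 epidermis and 1 auxin gene were higher. For the epidermis list edgeR called 1 gene as lower and DESeq2 2. In the ratios that chose the 40 genes, 7 epidermis, 2 auxin and 2 brassinosteroid genes passed in limma as lower in the inducible line at 12 h than at 0 h (3.68% of all genes tested did). Against wild type at 12 h 8 epidermis, 1 auxin and 1 brassinosteroid gene passed as lower (2.2%) and 1 epidermis gene as higher. The summed epidermis list stood at 29661 to 36725 in the inducible line at 12 h, 37379 to 44635 there at 0 h, 37792 to 46360 in wild type at 12 h and 35893 to 49508 in wild type at 0 h. Of the mitosis list 2 passed as higher than at 0 h and 6 as higher than wild type at 12 h, and of the stomatal lineage list 8 and 11. ALE1 of the epidermis list was at 0 in every library.

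Marker lists of 8 other cell types and tissues were read beside the 40 genes, and their part in the result was not tested. None of these lists held any of the 40, and the trichome list was drawn up with GL3 but without ATMYC1. The summed trichome list stood at 1105 to 1210 in the inducible line at 12 h, 1159 to 1311 there at 0 h, 1253 to 1435 in wild type at 12 h and 1134 to 1363 in wild type at 0 h, with a median interaction estimate of -0.60 and 2 of 11 genes tested positive. The root hair list stood at 1292 to 1906, 1892 to 2434, 2030 to 2780 and 1511 to 2972 in the same order, with a median of -0.64 and 0 of 10 positive. The guard cell list stood at 14424 to 21283, 15024 to 19739, 13821 to 19975 and 13211 to 18679, with 3 of 11 positive and a median of -0.23. Of all 20756 genes tested 10305 were positive. The endodermis, vascular, mesophyll and shoot meristem lists had medians of -0.29, 0.10, -0.03 and 0.09, and of 11 seed storage genes 1 was tested. WUS, which defines the shoot meristem centre, and LEC1, an embryo factor, were at 0 in every library. In limma 0 genes of the 8 lists passed in the interaction, and at an unadjusted p under 0.05 1 mesophyll gene was higher and 3 trichome, 3 root hair, 3 endodermis and 2 mesophyll genes were lower. Of these edgeR called 0 and DESeq2 called 1 mesophyll gene as lower. None of these fits held a lane term, and the lists were not read in the fit that did, which called more genes. Against the inducible line at 0 h 3 trichome and 2 mesophyll genes passed in limma as lower and 1 vascular and 1 shoot meristem gene as higher. Against wild type at 12 h 3 trichome, 2 endodermis, 2 mesophyll and 1 root hair gene passed as lower and 1 trichome gene as higher.

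The libraries ran on 2 lanes, replicates 1 and 2 on lane 1 and replicates 3 and 4 on lane 2. In lane 1 alone 38 of the 40 genes had both ratios at 1.3 or more, with medians of 1.76 to 0 h and 1.78 to wild type, and in lane 2 alone 34 had, with medians of 1.60 and 1.69. Both lanes had chosen the genes, so the rule was applied to 1 lane and the genes it took were read in the other. With fewer libraries in 1 lane, the order of libraries asked less there than in the rule that took the 40. Lane 1 alone chose 248 genes, of which 79 (31.9%) had both ratios at 1.3 or more in lane 2, where 3.52% of 18989 genes did. Lane 2 alone chose 170, of which 59 (34.7%) had them in lane 1, where 3.73% of 18948 genes did, and 35 genes met the rule in each lane. Most genes that this looser choice took in 1 lane therefore did not reach that size in the other.

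**Figure D5:**
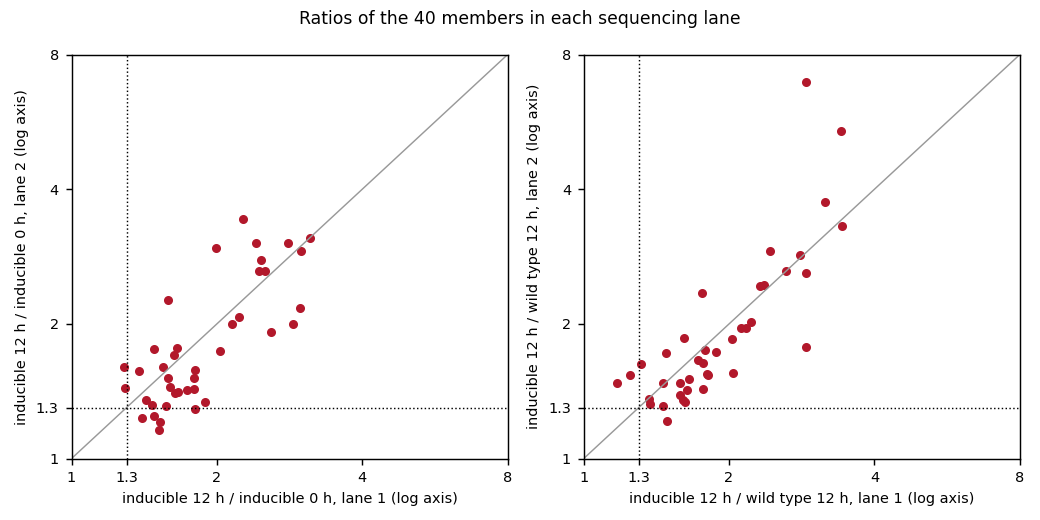
Ratios of the 40 genes in lane 1 (x axis) and lane 2 (y axis), both log axes, to the inducible line at 0 h (left) and to wild type at 12 h (right); dotted lines mark 1.3 and the diagonal equal ratios. Medians are 1.76 and 1.60 on the left and 1.78 and 1.69 on the right in lanes 1 and 2, and 2 genes in lane 1 and 6 in lane 2 fall below 1.3 in either panel.

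Among the 4 libraries of the inducible line at 12 h, replicate 2 was the highest for 20 of the 40 genes and replicate 3 the lowest for 20. Replicate 3 was also the highest for 10, which included ACO1, AT5G40590, ARGOS, AT1G53625, ALPHA-VPE, AAP3 and ORC2. It was the lowest for CYCB1;2, ATK5, ZCF125, AT4G22860 and TCX2, while replicate 1 was the lowest for CYCD3;2 and AT2G22610. The genes are spread over all 5 chromosomes, with 11, 7, 7, 7 and 8 on chromosomes 1 to 5. Their 59 tested neighbours had median ratios of 0.984 to 0 h and 1.01 to wild type.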

How the data were processed

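Polyadenylated RNA of 16 libraries was measured by sequencing (TruSeq, per the labels). TAIR10 is the build in the submitters' processing notes, and TopHat, SAMtools, HTSeq and DESeq2 are the tools listed there, with no version. The deposited values are a signal, the reads per gene that the authors divided by 1 size factor per library. That was read from the values, of which 100% in every column were whole reads after division by 1 step per column, to a tolerance of 0.001 read. Symbols, positions and promoters come from RefSeq models of TAIR10.1, which matched 32835 of the 33602 genes. No column was left unmapped.

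Group means and ratios were taken from the deposited values. The model across all genes was limma 3.58.1 in R 4.3.3, with trend and robust moderation, on log2(normalized count + 1), a scale that understates the change of low genes. It covered 20756 genes, those that reached 10 normalized counts in 4 or more libraries, all 4 groups in 1 fit, and the Benjamini-Hochberg threshold was 0.05. It was tested on simulated libraries that were independent of one another and held no lane deviation. That test therefore does not cover the lane deviations described below. Alternatives were edgeR 4.0.16 and DESeq2 1.42.0 on the recovered reads, a replicate block, a lane term, each lane alone, other pseudocounts and filters, other limits of the rule and leaving out each library. TMM scaling moved no library by more than 0.02 on the log2 scale.

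The members and the lists were chosen with earlier results of these data known. Named were SPCH, the 25 genes with the largest smaller ratio, members in a list, and the 3 genes on either side of each limit. The 5 other members (TSB1, VIM3, ZCF125, AT4G28230 and AT1G69160) were named after their values were seen. Per-library values are given for the first 12 and for a few others. Of 284 symbols in 16 lists 280 were matched, 12 of them set by locus identifier. Motifs were searched on both strands. Deviations of same-numbered libraries from their group means correlated at 0.521 to 0.718. Those of the same lane with another number correlated as highly, at 0.533 to 0.765, those of the other lane at -0.747 to -0.532, and 2 of 16 libraries correlated best with their own number. The shared deviation thus goes with the lane, a pairing by number was not shown, and the replicate block holds the lane within it.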

Additional observations from a re-analysis of the deposited data

Results flagged for a closer look

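Of the 160 groups of 4 libraries, 40 genes in 4 groups each, 10 (6.25%) held a library far from its other 3, close to the 5.0% that chance gives, so single cases may be chance. In the inducible line at 12 h replicate 3 of EMS1 stood at 152 against 244 to 262, and replicate 4 of AT4G30230 at 83.1 against 67.6 to 69.0. In that line at 0 h replicate 3 of ALPHA-VPE stood at 18.1 against 34.6 to 37.7, and replicate 3 of CYCB1;2 at 485 against 373 to 385.

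In wild type at 12 h replicate 3 of TCX2 stood at 277 against 433 to 445, and replicate 2 of TSB1 at 3536 against 4738 to 4902. In wild type at 0 h ACO1 had 254 in replicate 2 against 137 to 155, and XTH16 had 603 in replicate 3 against 336 to 372. ORC2 had 41.4 in replicate 4 against 75.5 to 77.0, and TCX2 had 379 in replicate 3 against 425 to 428.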

How the results depend on the processing

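The number of genes the rule takes depends on its limits. It took 25 at a ratio of 1.5, 14 at a ratio of 2, 256 without the order of libraries and 117 without the limits on the inducible line at 0 h and on time in wild type, against 40. Lane 1 alone gave 248 and lane 2 alone 170. Leaving out 1 library gave 38 to 74, with 74 without replicate 3 of the inducible line at 12 h, and at most 4 of the 40 were lost in any of these 16 settings. TMM scaling kept all 40, and group medians gave 37, of which 33 were among the 40.

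The genes called in the interaction, 106, became 518 with the replicate block, 586 with the lane term and 378 in DESeq2, and 3 in lane 1 alone. Leaving out 1 library gave 53 to 454, with 454 without replicate 1 of wild type at 0 h. The count also moved by more than 1.5 times, to between 53 and 70, without replicate 1, 2 or 4 of the inducible line at 0 h, 2 or 3 of that line at 12 h, 1, 2 or 4 of wild type at 12 h, or 3 or 4 of wild type at 0 h. Of the 40 genes, 5 were called there, against 13 with the replicate block, 17 with the lane term, 16 in DESeq2, 0 in lane 1 and 1 in lane 2, and 5 to 12 without 1 library (12 without replicate 1 of wild type at 0 h). Against the inducible line at 0 h 29 were called, 11 in each lane alone and 19 to 31 without 1 library (19 without replicate 2 of the inducible line at 0 h). Against wild type at 12 h 28 were called, 11 in each lane alone and 19 to 32 without 1 library. The block changed those 2 counts by less than 1.5 times. The main fit held no lane term, so the deviations shared within a lane, given above, stayed in its residual spread. The cause of these changes was not tested, though 1 lane holds 2 libraries a group.

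The smaller ratio of the 35 genes of the naming rule had 700 values under the alternatives. Of these 681 moved by less than the spread between replicates, 19 by more and 0 changed direction, and the lowest was 1.16, with 19 under 1.3, 5 of them in ATK5. The rule fixed the direction in advance, since every induced library lay above all others, so nothing is read from the 0. Leaving out a wild-type 0 h library cannot change this ratio. Leaving out 1 library of the inducible line at 12 h cannot move it by more than that spread. At low levels, as in AT1G14550, depth limits the ratio.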
